A study of Mus musculus with 24 samples.

Results

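The urea cycle genes described were 7 genes, chosen by symbol from the count table: *Cps1*, *Otc*, *Ass1*, *Asl*, *Nags*, *Slc25a13* and *Slc25a15*. All 7 were among the 55421 genes counted, and all 7 were among the 13583 genes with enough counts to be tested. PolyA RNA was sequenced from hepatocytes isolated from 24 male mice, 6 in each of 4 groups. Young mice were labelled C57BL/6N and 6 months old, and old mice C57BL/6J and 24 months old, and these 2 differences, age and substrain, cannot be told apart. HFD groups received the 58y1 diet, with 60% of energy from fat, for 9 weeks, and ND groups received a Teklad chow according to the labels. The study's methods differ from the labels here: they name a low-fat 58Y2 diet as the normal diet, give no substrain and give somewhat other ages. The labels were followed, so what ND and the 2 ages stand for rests on them. The libraries formed 2 batches of 3 mice per group, apart from old ND, which was split into 2 (batch 1) and 4 (batch 2).

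The urea cycle is the main route by which the liver disposes of ammonia, and it runs in hepatocytes, most of all those near the portal vein. In the mitochondrion, Nags makes N-acetylglutamate, the obligate activator of Cps1. Cps1 joins ammonia and bicarbonate to carbamoyl phosphate, and Otc transfers the carbamoyl group to ornithine. Slc25a15 exchanges ornithine and citrulline across the inner mitochondrial membrane, and Slc25a13 (citrin) exports the aspartate that brings in the other nitrogen. In the cytosol, Ass1 and Asl form argininosuccinate and cleave it to arginine, from which urea is released.

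Total counts per mouse ranged from 9200332 to 22185069. Summed CPM (counts scaled to library size by TMM) of the 5 hepatocyte markers counted ranged from 48385 to 153949 over the 24 mice. The summed CPM of 7 macrophage and Kupffer cell markers ranged from 1.28 to 64.5 in young ND, 10.8 to 158 in young HFD, 34.4 to 1007 in old ND and 48.9 to 510 in old HFD. None of these 7 markers was at 0 in every mouse of a group. In 4 mice the sum was 381 to 1007, namely replicates 3 and 4 of old ND and 4 and 6 of old HFD, and in the other 20 mice it was at most 158. *Nnt*, which is deleted in part in C57BL/6J, had 1.34 to 2.64 CPM in young mice and 0.538 to 2.57 in old mice, so its level did not separate the labelled substrains. In bulk samples, fewer cells of a type and less RNA per cell cannot be told apart.

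*Cps1* (ENSMUSG00000025991) and *Nags* (ENSMUSG00000048217) were lower in hepatocytes of old HFD mice than of young ND mice, and the other 5 genes did not pass the test in that comparison. By edgeR, no urea cycle gene passed the test for diet within an age or for age within a diet, whereas DESeq2 called 2 of 7 for diet in old mice (8.37% of all genes) and 1 of 7 for age on ND (12.3% of all genes). The 2 of 7 called by edgeR in old HFD against young ND stand beside 30.2% of all genes. In young ND, the 7 genes together took 0.681% to 0.871% of all counts (median 0.772%). In young HFD the share was 0.482% to 0.810% (median 0.559%). Old ND mice ranged from 0.223% to 0.697%, with a median of 0.638%, and old HFD mice from 0.226% to 0.739%, with a median of 0.482%. The upper ends of the groups lay closer together than the lower ends, and the lower ends of old ND and old HFD lay far below every young mouse.

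**Figure D1:**
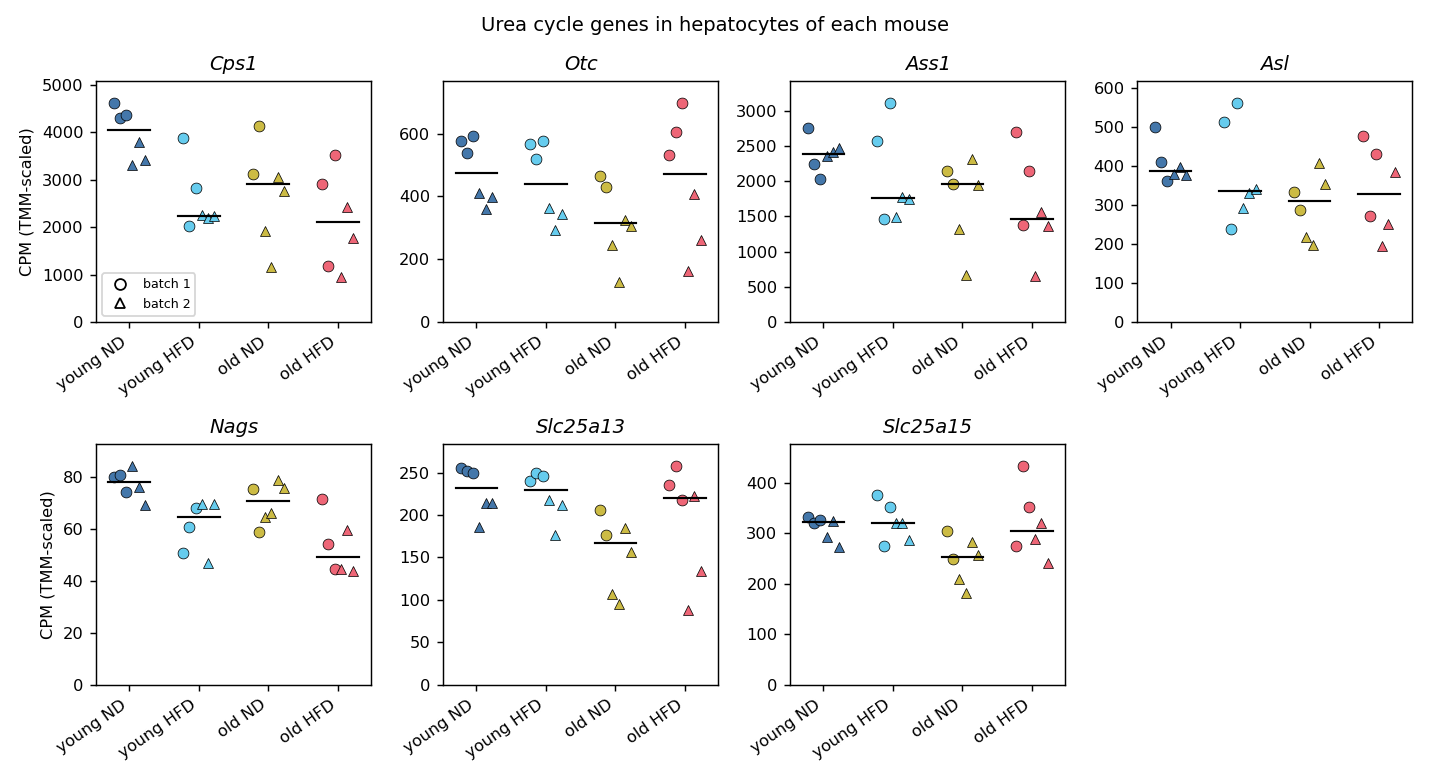
CPM of each urea cycle gene in each mouse (y axis, linear from 0) by group (x axis, 6 mice each). Circles are batch 1, triangles batch 2 and lines the group medians. *Cps1* and *Nags* were lower in 5 of 6 old HFD mice than in any young ND mouse, and *Otc* was higher on average in batch 1 than in batch 2 of each group.

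Levels were compared between genes as CPM per kilobase of the longest principal transcript in GENCODE. In young ND, *Ass1* was highest, with a median of 1408 CPM per kilobase (1203 to 1631). *Cps1* followed with 731 (596 to 832), below *Ass1* in all 6 mice. *Otc* was at 205 (155 to 255) and *Asl* at 161 (150 to 207), with overlapping ranges. The mitochondrial carriers were lower, with *Slc25a15* at 94.1 (79.7 to 97.1) and *Slc25a13* at 74.4 (59.4 to 82.0), with overlapping ranges. *Nags* was lowest at 38.4 (34.2 to 41.6), below *Slc25a13* in all 6 mice. *Ass1* was first and *Nags* last in all 4 groups. Per kilobase of all annotated exons, *Slc25a13* stood above *Slc25a15* by the median in young ND (61.1 against 57.3), so the order of these 2 carriers depended on the length used.

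The deposited FPKM values could not be used for this order. Over 13189 genes, log2 mean FPKM correlated with log2 mean CPM per kilobase of the whole gene, introns included, at r = 0.998, with an interquartile range of 0.0760 for the log2 difference. With CPM per kilobase of exons, r was 0.873 and the interquartile range 1.94. For *Slc25a13*, which spans 175956 bases of which 3798 are exonic, mean FPKM was 1.14, mean CPM per kilobase of span 1.14 and mean CPM per exonic kilobase 52.6. For *Nags*, which spans 3965 bases, the same 3 values were 19.6, 16.5 and 23.03. Ranked by FPKM, *Nags* would stand far above *Slc25a13*, and per exonic kilobase it stood below. Comparisons of a single gene between mice do not involve its length.

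The 7 genes lie on 7 chromosomes (GRCm38, the mm10 build). *Cps1* is at chr1:67123026-67231259, *Otc* at chrX:10252305-10321024, *Ass1* at chr2:31470207-31520672 and *Asl* at chr5:130011258-130029247. *Nags* is at chr11:102145513-102149477, *Slc25a13* at chr6:6041218-6217173 and *Slc25a15* at chr8:22375551-22398597. *Nags* shares 443 exonic bases with *Gm11586* on the other strand. The handling of strand is not stated, so reads there could not be assigned to one of them with certainty. *Gm11586* itself had 0 to 19 counts per mouse, against at least 553 for *Nags*.

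RefSeq promoter entries (GRCm38.p6) were at hand for 5 of the 7 genes, not for *Cps1* or *Asl*. The 250 bases upstream of the start are shown for 3 genes whose window holds no annotated exon: *Nags*, which was lower in old HFD, and *Otc* and *Slc25a13*, whose levels followed each other most closely among the mitochondrial members. *Nags* is at chr11:102145263-102145512 (plus strand), *Otc* at chrX:10252055-10252304 (plus strand) and *Slc25a13* at chr6:6217174-6217423 (minus strand). Capitals mark matches, on either strand, to GGGCGG (GC box), CCAAT (a promoter box), the cAMP response half-site TGACG, TTNNGNAA (C/EBP), AGGTCA (nuclear receptor half-site) or AGAACA (glucocorticoid half-site).
Nags: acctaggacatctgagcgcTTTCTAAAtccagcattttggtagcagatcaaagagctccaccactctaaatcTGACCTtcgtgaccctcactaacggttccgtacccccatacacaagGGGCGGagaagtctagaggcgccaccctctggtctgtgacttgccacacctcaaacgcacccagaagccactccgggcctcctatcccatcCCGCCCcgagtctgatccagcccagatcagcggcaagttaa
Otc: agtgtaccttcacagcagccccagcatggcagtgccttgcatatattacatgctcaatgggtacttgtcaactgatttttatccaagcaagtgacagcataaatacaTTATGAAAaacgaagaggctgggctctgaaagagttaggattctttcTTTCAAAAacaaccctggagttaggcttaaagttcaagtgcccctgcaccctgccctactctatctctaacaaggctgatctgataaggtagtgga
Slc25a13: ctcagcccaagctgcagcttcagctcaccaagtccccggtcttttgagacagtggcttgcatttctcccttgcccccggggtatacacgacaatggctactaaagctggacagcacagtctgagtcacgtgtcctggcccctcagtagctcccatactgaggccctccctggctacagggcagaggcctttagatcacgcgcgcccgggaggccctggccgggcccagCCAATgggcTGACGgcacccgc
*Nags* had 2 GC boxes, 1 C/EBP match and 1 nuclear receptor half-site, *Otc* had 2 C/EBP matches, and *Slc25a13* had 1 CCAAT and 1 TGACG match. No match overlapped another, although TGACG and AGGTCA share letters on opposite strands. The same 250 upstream bases were searched in 32851 mouse promoters. Of these, 32.7% held GGGCGG, 33.8% CCAAT, 17.8% TGACG, 36.8% TTNNGNAA, 14% AGGTCA and 16.1% AGAACA. Each motif is thus common, and no motif was shared by all 3 windows.

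To ask how age and HFD together differ from the young control, old HFD was compared with young ND. Of all 13583 genes, 30.2% were called (adjusted p under 0.05), 12.9% as lower and 17.3% as higher, and 2 of the 7 urea cycle genes were called, both as lower. *Cps1* encodes the entry step of the cycle and *Nags* makes its activator. The median log2 fold change was -0.29 over the 7 genes and 0.044 over all genes. *Cps1* had 3310, 4058 and 4623 CPM (lowest, median, highest) in young ND and 942, 2101 and 3532 in old HFD. In 5 of 6 old HFD mice it was below every young ND mouse, and the remaining mouse fell within the young ND range. The log2 fold change of *Cps1* was -0.92 (SE 0.25, adjusted p = 0.00868 by the quasi-likelihood test of edgeR, Benjamini-Hochberg). It was -0.83 in batch 1 alone and -1.01 in batch 2 alone, without a call in either.

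*Nags*, the source of the Cps1 activator, had 69.3, 78.0 and 84.4 CPM in young ND and 43.8, 49.3 and 71.4 in old HFD. Again 5 of 6 old HFD mice were below every young ND mouse, and 1 was within the young ND range. The log2 fold change of *Nags* was -0.55 (SE 0.13, adjusted p = 0.00364 by the same test), with -0.49 in batch 1 and -0.60 in batch 2. Both genes were called in all 24 fits that left out 1 mouse. Markers of other cells were higher in this comparison: 6 of 7 macrophage, 6 of 6 sinusoidal endothelial cell and 5 of 6 stellate cell markers were called as higher, against 17.3% of all genes, and their part in the members' values was not tested. Without the 4 mice of highest macrophage marker sum, *Cps1* was at -0.73 (adjusted p = 0.0247) and *Nags* at -0.42 (adjusted p = 0.0382), and both were still called. In that fit 8.51% of all genes were called as lower.

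The other members did not pass the test between old HFD and young ND. *Ass1* had 2040, 2388 and 2766 CPM in young ND and 650, 1471 and 2697 in old HFD mice, with 4 of 6 old HFD mice below every young ND mouse. Its log2 fold change was -0.61 (SE 0.26, adjusted p = 0.0770), made up of -0.20 in batch 1 and -0.996 in batch 2. The values of *Asl* (-0.29), *Slc25a13* (-0.28), *Otc* (-0.19) and *Slc25a15* (0.024) had adjusted p from 0.229 to 0.903.

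**Figure D2:**
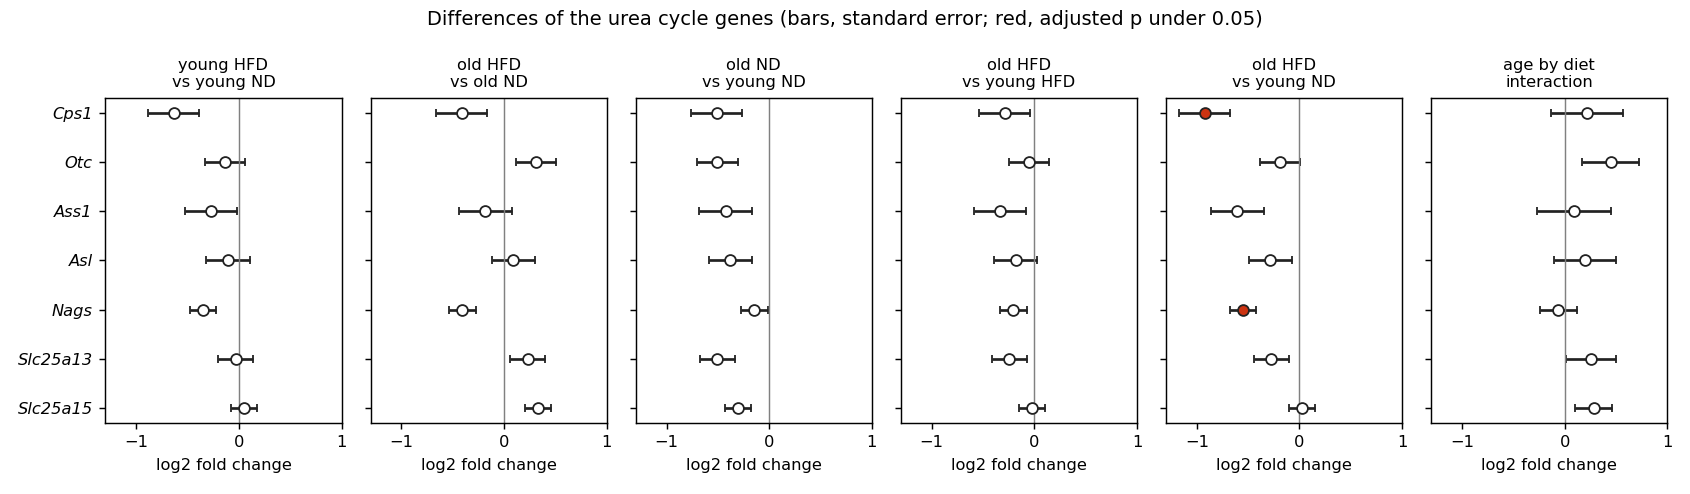
Log2 fold change (x axis) of each urea cycle gene with its standard error in each comparison and for the age by diet interaction. Filled red points passed the edgeR test at an adjusted p of 0.05, which holds for *Cps1* and *Nags* in old HFD against young ND.

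For the response of young mice to HFD, 3.50% of all genes and 0 of the 7 urea cycle genes were called by edgeR, with 2 of the 7 at an unadjusted p under 0.05 (2885 of all 13583 genes). DESeq2 also called 0 of 7 (9.24% of all genes). *Cps1* had 2035, 2242 and 3891 CPM in young HFD, with 5 of 6 mice below every young ND mouse. Its log2 fold change was -0.63 (SE 0.25, adjusted p = 0.138), at -0.61 in batch 1 and -0.63 in batch 2. *Nags* had 46.9, 64.6 and 69.6 CPM, with 4 of 6 mice below every young ND mouse, at -0.35 (SE 0.13, adjusted p = 0.118). Whether *Cps1* passed depended on the fit: it did without the 4 mice of highest macrophage marker sum (adjusted p = 0.0460), none of which is young, in a fit that called 7.91% of all genes. Of the markers of other cells, 1 of 7 macrophage, 1 of 6 sinusoidal endothelial cell, 2 of 6 stellate cell and 2 of 3 erythroid cell markers were called as higher and 0 as lower. Their part in the members' values was not tested.

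The other 5 members differed less between the young groups. *Ass1* and *Asl* spread widely within young HFD. *Ass1* had 1466, 1763 and 3116 CPM and *Asl* 239, 336 and 562 CPM. For each of these 2 cytosolic enzymes, 4 young HFD mice were below every young ND mouse, and 1 (*Ass1*) or 2 (*Asl*) were above all of them. The log2 fold changes were -0.27 and -0.11 for *Ass1* and *Asl*, with adjusted p of at least 0.606. *Otc* (-0.14), *Slc25a13* (-0.030) and *Slc25a15* (0.046) had adjusted p of at least 0.749.

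In old mice, HFD against ND gave 3.01% of all genes called and 0 of the 7 urea cycle genes by edgeR, with 2 of 7 at an unadjusted p under 0.05 (2990 of all 13583 genes). DESeq2 called 2 of 7 (8.37% of all genes). *Nags* had 58.8, 70.8 and 78.7 CPM in old ND, and 4 of 6 old HFD mice were below all of these. Its log2 fold change was -0.41 (SE 0.13, adjusted p = 0.0761), and -0.39 in DESeq2 (adjusted p = 0.0328). *Slc25a15*, the ornithine carrier, lay the other way, with 181, 253 and 304 CPM in old ND and 240, 305 and 434 in old HFD mice. Its difference was 0.33 on the log2 scale (SE 0.13, adjusted p = 0.136), and 0.35 in DESeq2 (adjusted p = 0.0476). *Cps1* was at -0.41 (adjusted p = 0.339) and *Otc* at 0.31 (adjusted p = 0.369). The log2 fold changes of the 7 genes were 4 above and 3 below 0, with a median of 0.092. Leaving out replicate 1 of old HFD, the mouse with the highest *Nags* in its group, brought *Nags* to a call (adjusted p = 0.0219). Without the 4 mice of highest macrophage marker sum, *Nags* was at -0.33 (adjusted p = 0.194) and *Slc25a15* at 0.29 (adjusted p = 0.184). In that fit, which called 2.84% of all genes, *Otc* was called as higher (0.39, adjusted p = 0.0498).

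For age on ND, 8.50% of all genes were called, 1.24% as lower, and 0 of the 7 urea cycle genes by edgeR, with 3 of 7 at an unadjusted p under 0.05 (3020 of all 13583 genes). DESeq2 called 1 of 7, *Slc25a13* (adjusted p = 0.0391), and 12.3% of all genes. The log2 fold changes of all 7 genes were below 0, with a median of -0.42 against 0.0070 over all genes. *Slc25a13* had 185, 232 and 256 CPM in young ND and 95.2, 167 and 206 in old ND. Here 5 of 6 old ND mice were below every young ND mouse, at -0.51 (SE 0.17, adjusted p = 0.0703). *Otc* had 360, 476 and 592 CPM in young ND and 126, 316 and 465 in old ND, with 4 of 6 mice below, at -0.50 (SE 0.20, adjusted p = 0.116). *Slc25a15* was at -0.31 (SE 0.13, adjusted p = 0.147), and *Cps1* at -0.51 (adjusted p = 0.227) with 1159, 2918 and 4128 CPM in old ND. *Nags* differed least, at -0.14 (adjusted p = 0.561).

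In this comparison 7 of 7 macrophage markers were higher, and so were 5 of 6 stellate cell and 3 of 6 sinusoidal endothelial cell markers, against 7.26% of all genes. The part of these cells in the members' values was not tested. Without the 4 mice of highest macrophage marker sum, the log2 fold changes moved toward 0, to -0.32 for *Slc25a13*, -0.31 for *Otc*, -0.17 for *Slc25a15* and -0.26 for *Cps1*, and 0 of 7 were called, as were 0.788% of all genes. *Slc25a13* was called without replicate 5 of old ND, and *Otc* and *Slc25a13* both without replicate 4 of old HFD.

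For age on HFD, 2.24% of all genes were called and 0 of the 7 urea cycle genes by edgeR and by DESeq2 (6.32% of all genes by DESeq2), with 0 of 7 at an unadjusted p under 0.05 (2848 of all 13583 genes). The log2 fold changes ranged from -0.33 (*Ass1*) to -0.022 (*Slc25a15*), all below 0, with a median of -0.20. The age by diet interaction, the difference between the HFD response of old and young mice, was called for 0.00% of all genes and 0 of the 7 by edgeR. At an unadjusted p under 0.05 it held for 1247 of all genes and 0 of the 7, and DESeq2 called 4 genes, none of the 7. It was 0.45 for *Otc* (SE 0.28, adjusted p = 0.618) and -0.060 for *Nags* (SE 0.18, adjusted p = 0.941). The HFD response of the 7 genes was thus not shown to differ between ages.

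The batches differed for some members. *Otc* had a mean of 570 CPM in batch 1 and 390 in batch 2 of young ND, 554 and 333 in young HFD, 447 and 251 in old ND, and 611 and 277 in old HFD. *Otc* was higher in batch 1 in each group, and so were *Cps1*, *Asl*, *Slc25a13* and *Slc25a15*, while *Ass1* and *Nags* were not in every group. *Cps1* had a mean of 4438 CPM in batch 1 and 3514 in batch 2 of young ND, and 2541 and 1715 in old HFD. Batch was a term of every main test. In old ND, batch 1 held 2 mice.

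Across the 24 mice, log2 CPM of the members correlated with Pearson's r from -0.096 to 0.92 over 21 pairs, with a median of 0.63 and 12 pairs above 0.5. The mice share batches and groups, and these values describe the libraries. The highest pairs were *Otc* with *Slc25a13* (r = 0.92) and *Ass1* with *Asl* (r = 0.88). *Nags* was the member least like the others, at r = 0.48 with *Cps1*, its target, and -0.096 with *Slc25a15*.

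Much of this rested on the 4 mice of highest macrophage marker sum. Over the other 20 mice the median r was 0.19, with 6 pairs above 0.5 and a range from -0.39 to 0.92. For the cytosolic enzymes *Ass1* and *Asl*, r was 0.92, against 0.88 over all 24 mice. *Cps1* correlated with *Ass1* at 0.70 and *Asl* at 0.56, and *Otc* with *Slc25a13* at 0.77. Between *Cps1*, *Ass1* and *Asl* on one side and *Otc* and the 2 carriers on the other, r ran from -0.24 (*Cps1* with *Slc25a15*) to 0.31 (*Otc* with *Asl*).

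**Figure D3:**
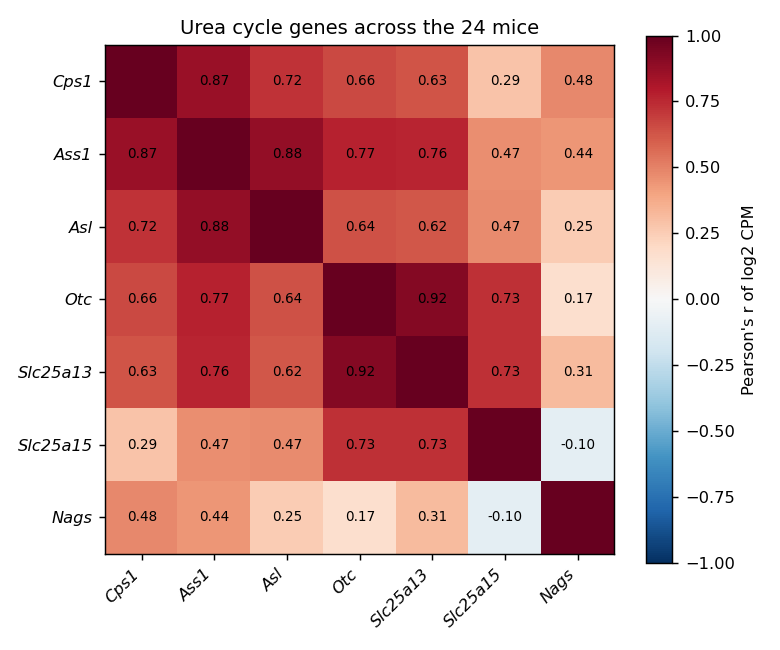
Pearson's r of log2 CPM between urea cycle genes across the 24 mice, on a colour scale from -1 to 1. The darkest cells off the diagonal are *Otc* with *Slc25a13* (0.92), *Ass1* with *Asl* (0.88) and *Cps1* with *Ass1* (0.87), and *Nags* is pale in its row, with r from -0.096 to 0.48.

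**Figure D4:**
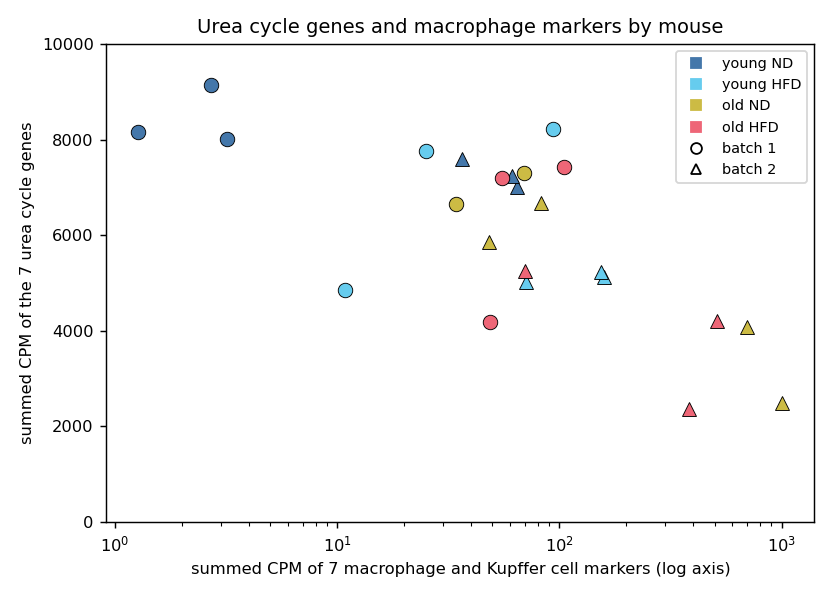
Summed CPM of the 7 urea cycle genes (y axis, linear from 0) against the summed CPM of 7 macrophage and Kupffer cell markers (x axis, log) in each of the 24 mice. The 4 mice furthest right hold 2369 to 4205, and the other 20 mice 4187 to 9136.

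The summed CPM of the 7 genes was 2369 to 4205 in the 4 mice with the highest macrophage markers and 4187 to 9136 in the other 20 mice. These 4 mice are all old and all in batch 2, and the part of other cells in their values was not tested. Low sums were not confined to them. Replicate 2 of old HFD had 4187 with a marker sum of 48.9, and replicate 2 of young HFD had 4846 with a marker sum of 10.8.

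The genes whose log2 CPM was most like the mean z-score of the 7 members over the 24 mice were *Cnn3* (r = 0.95), *Cth* (0.95), *Cpped1* (0.94), *Atp5b* (0.93) and *Hspa9* (0.93). *Cth* cleaves cystathionine, *Atp5b* is a subunit of the mitochondrial ATP synthase and *Hspa9* is a mitochondrial chaperone.

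Genes that feed or compete with the cycle were compared next. Ammonia that escapes the cycle is captured near the central vein by Glul, glutamine synthetase, and *Oat* diverts ornithine to glutamate. Between old HFD and young ND, 5 of 13 tested genes of other ornithine, arginine and ammonia use were called as higher and 0 as lower, and 1 of 20 genes of ammonia and nitrogen supply was called, as higher, where 17.3% of all genes were called as higher and 12.9% as lower. *Glul* had 304, 357 and 405 CPM in young ND, 427, 972 and 1124 in young HFD, 257, 517 and 845 in old ND and 426, 1175 and 2427 in old HFD. All 6 mice of both HFD groups were above every young ND mouse, a pattern shared by 1.77% of all genes for young HFD and 2.99% for old HFD. *Glul* had a log2 fold change of 1.56 in old HFD against young ND (SE 0.29, adjusted p = 7.32e-04) and 1.14 in young HFD (SE 0.28, adjusted p = 0.0267). In young HFD it was the 1 called gene of its list, and that call was lost with the replicate block, where 0 of the 13 were called, and in at least 1 fit that left out 1 mouse. Other fits called more of the 13: 5 by DESeq2 (9.24% of all genes) and 5 without the 4 mice of highest macrophage marker sum (7.91%). The number was 0 to 5 over the fits that left out 1 mouse.

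*Slc1a2*, a glutamate transporter, had 60.6, 65.99 and 86.0 CPM in young ND and 97.3, 181 and 332 in old HFD, without overlap (log2 fold change 1.47, adjusted p = 4.35e-04). *Rhbg*, an ammonia transporter, had 0.268, 0.766 and 1.54 CPM in young ND and 1.80, 5.58 and 25.2 in old HFD, also without overlap (3.10, adjusted p = 6.59e-04). *Oat* had 400, 601 and 749 CPM in young ND and 559, 1146 and 3163 in old HFD (1.12, adjusted p = 0.00390), with 5 of 6 mice above young ND. These 3 genes and *Glul* all lie on the list of pericentral genes, of which 5 of 12 were called as higher and 2 as lower, against 17.3% and 12.9% of all genes. The rises were larger in batch 1 than in batch 2, for *Glul* 2.48 against 0.56 and for *Oat* 1.68 against 0.48.

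On the periportal side, where the urea cycle genes are found, 4 of 12 genes were called as lower and 0 as higher, against 12.9% and 17.3% of all genes. *Cdh1* (E-cadherin) had 26.1, 39.8 and 58.8 CPM in young ND and 1.08, 10.2 and 35.5 in old HFD (-2.27, adjusted p = 0.00255). The difference for *Cdh1* was -4.03 in batch 1 and -0.68 in batch 2. *Gls2*, which releases ammonia from glutamine, was at -0.63 (adjusted p = 0.107) and *Glud1*, glutamate dehydrogenase, at -0.32 (adjusted p = 0.0805). *Car5a*, which supplies mitochondrial bicarbonate, was at 0.26 (adjusted p = 0.339), and *Slc25a12*, the other aspartate-glutamate carrier, at -0.53 (adjusted p = 0.0692). *Slc25a2*, a paralog of *Slc25a15*, did not pass the count filter, with at most 0.448 CPM in any mouse.

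**Figure D5:**
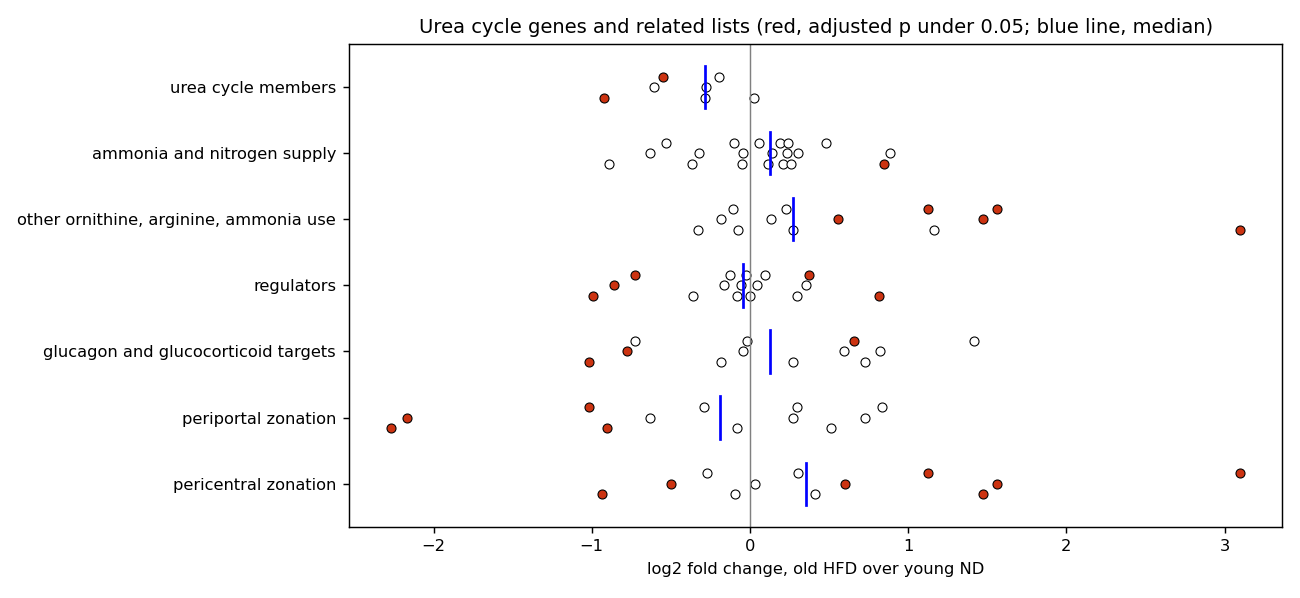
Log2 fold change of old HFD over young ND (x axis) for each tested gene of 7 lists, the urea cycle genes first. Red points have an adjusted p under 0.05 and blue lines are medians, from -0.29 for the urea cycle genes to 0.36 for the pericentral list, and some genes are on more than one list.

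Of 16 known regulators of urea cycle genes, 3 were called as lower and 2 as higher between old HFD and young ND, a share close to the 30.2% called over all genes. *Hnf4a*, the hepatocyte nuclear receptor, was singled out after its values were seen. It had 563, 620 and 712 CPM in young ND and 212, 415 and 506 in old HFD, without overlap, which holds in this direction for 4.27% of genes, at -0.73 (SE 0.18, adjusted p = 0.00534). The lower level was not confined to old HFD. *Hnf4a* had 379, 474 and 498 CPM in young HFD (-0.44, adjusted p = 0.154 by edgeR). In old ND it had 365.5, 537 and 573 CPM (-0.27, adjusted p = 0.400 by edgeR), and neither difference was called. Of 12 glucagon and glucocorticoid target genes, not all of them enzymes, 2 were called as lower and 1 as higher. This share was also close to that over all genes. Without the 4 mice of highest macrophage marker sum, the calls (higher, lower) were 5 and 2 for pericentral genes, 0 and 3 for periportal genes, 4 and 0 for other ornithine, arginine and ammonia use, 3 and 0 for nitrogen supply, 1 and 2 for regulators and 1 and 1 for glucagon and glucocorticoid targets. Over all genes that fit called 10.7% as higher and 8.51% as lower.

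In young HFD against young ND, 4 of 12 pericentral genes were called, 3 as higher and 1 as lower, against 3.50% of all genes. On the supply, other use, glucagon and glucocorticoid and periportal lists 1 gene each was called, and 0 of 16 regulators. Of the called genes with the smallest adjusted p, *Slc1a2* (1.11, adjusted p = 0.0177) and *Serpina6* (0.87, adjusted p = 0.0195), the corticosteroid carrier of plasma, were higher. *Asns*, asparagine synthetase (-2.48, adjusted p = 0.0195), and *Cdh1* (-2.04, adjusted p = 0.0219) were lower, although *Cdh1* was not called with the replicate block (adjusted p = 0.0719). All 4 calls were lost without replicate 2 of young ND (adjusted p of 0.0580 for *Serpina6*, 0.0609 for *Asns* and 0.0662 for *Cdh1*). Single calls were also lost without replicate 1 of young ND (*Cdh1*) or replicates 1 (*Asns*, *Cdh1*), 5 (*Asns*) or 6 (*Slc1a2*, *Cdh1*) of young HFD. The other called genes were *Glul*, described above, *Lect2* (0.70, adjusted p = 0.0274) and *Cyp27a1* (-0.44, adjusted p = 0.0486), all on the pericentral list. The number of pericentral genes called was 2 with the replicate block and 0 to 6 over the fits that left out 1 mouse, so none of these calls held in each of them.

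Among old mice, HFD against ND, 3 of 13 genes of other ornithine, arginine and ammonia use and 2 of 12 pericentral genes were called, all as higher, against 3.01% of all genes. The supply list and the glucagon and glucocorticoid list had 1 call each, and 0 of 16 regulators and 0 of 12 periportal genes were called. *Tsc22d3* (1.15, adjusted p = 0.0159), *Prodh2* (0.60, adjusted p = 0.0231), *Lect2* (0.75, adjusted p = 0.0232) and *Rhbg* (2.30, adjusted p = 0.0309) were higher. *Prodh2* was not called with the replicate block (adjusted p = 0.0890) or without the 4 mice of highest macrophage marker sum (0.40, adjusted p = 0.145). *Rhbg* was at 3.87 in batch 1 and 1.12 in batch 2. It was called in 19 of 24 fits that left out 1 mouse, not without replicates 1, 2, 5 or 6 of old ND or replicate 2 of old HFD (adjusted p up to 0.0938), and without the last of these its log2 fold change was 1.68. Without replicate 2 of old ND the calls of *Tsc22d3* (adjusted p = 0.0547), *Prodh2* (adjusted p = 0.0650) and *Lect2* (adjusted p = 0.0693) were lost as well, and that of *Prodh2* also without replicate 1. The other called genes were *Odc1* (0.42, adjusted p = 0.0309) and *Gpt* (0.57, adjusted p = 0.0345), alanine aminotransferase. Neither call held in each fit that left out 1 mouse, since the lowest count was 0 for both lists, and without the 4 mice of highest macrophage marker sum the call of *Gpt* was lost.

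In old ND against young ND, 1 gene each was called on the other use, glucagon and glucocorticoid and periportal lists, all as lower, and 1 on the pericentral list, as higher, against 8.50% of all genes. *Odc1*, which turns ornithine into putrescine (-0.52, adjusted p = 0.00442), *Cdh1* (-2.01, adjusted p = 0.0135) and *G6pc* (-1.01, adjusted p = 0.0310) were lower, and *Slc1a2* was higher (0.82, adjusted p = 0.0409). Without the 4 mice of highest macrophage marker sum, *Odc1* (adjusted p = 0.0587), *G6pc* (adjusted p = 0.173) and *Slc1a2* (adjusted p = 0.0846) were not called, in a fit that called 107 genes in place of 1155. With the replicate block, *Cdh1* (adjusted p = 0.0633) and *Slc1a2* (adjusted p = 0.0976) were not called. Of 24 fits that left out 1 mouse, 20 called *G6pc*, not those without replicates 1 or 5 of young ND or 2 or 4 of old ND, and 15 called *Slc1a2*, not those without any 1 of the 6 young ND mice or replicates 1, 4 or 6 of old ND. In old HFD against young HFD, 0 of 78 tested genes of these lists were called by edgeR, with 11 at an unadjusted p under 0.05, against 2.24% and 2848 of all 13583 genes. DESeq2 called 1 each on the supply, other use, regulator and pericentral lists, and 6.32% of all genes.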

How the data were processed

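Counts per gene, whole numbers without normalization, were deposited by the authors, who aligned reads to mm10 (Gencode vM23) with STAR 2.7.3a in 2 passes and counted with HTSeq 0.11.2. The deposited FPKM values were computed by the authors with CuffLinks, and ComBat adjustment between batches is named only with that table. Strand and duplicate handling are not given in the sources used here. Counts come from amplified reads without molecular identifiers. The members and gene lists were chosen with earlier results of these data known. Gene positions are from GENCODE M21.

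Samples were grouped by their labels. edgeR 4.0.16 (R 4.3.3) was run on counts with TMM, filterByExpr by group and a single model for the 24 mice (terms for group and batch); its quasi-likelihood test was adjusted by Benjamini-Hochberg over 13583 genes, with 0.05 as threshold. The fit was tested on simulated data. Total counts were 9200332 to 22185069 per mouse. Replicate mice differed by more than counting error (chi-square per degree of freedom 14.5 to 33.7 by group), so the spread between mice set the precision. Alternatives were DESeq2 1.42.0, RLE normalization, no count filter, only the groups compared, no batch term, the replicate block, each batch alone, limma 3.58.1 on log2(FPKM + 1) or log2(FPKM + 0.1), and leaving out each mouse. Leaving out the 4 mice with the highest macrophage markers was added after seeing the data. Levels between genes were set as CPM per kilobase in place of the FPKM, whose values follow the gene span. Named genes were the 7 members, 7 fixed related genes (a further gene of each set is not reported here), up to 4 called list genes with the smallest adjusted p per comparison, and the 5 genes most like the members' mean. The remaining called list genes of both diet comparisons were named after their values were seen. Correlations and figures used Python 3.11.15 and matplotlib 3.10.9.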

Additional observations from a re-analysis of the deposited data

How the results depend on the processing

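Of the 7 urea cycle genes, the number called in old HFD against young ND was 2 to 3 over the fits leaving out 1 mouse, 3 with the replicate block (3478 of all genes) or no count filter (4623), and 0 in batch 1 alone (928) and in batch 2 alone (615), each of which holds fewer mice. All-gene counts in parentheses are of 13583, or of 32336 with no count filter. In young HFD against young ND it was 1 with no count filter (1473), 2 with only both groups (2474) and 1 without the 4 macrophage-high mice (1075). In old HFD against old ND it was 2 by DESeq2 (1137), 1 without those 4 mice (386) and 0 to 1 leaving out 1 mouse. In old ND against young ND it was 1 by DESeq2 (1676), 2 with no count filter (2053), 1 with only both groups (1762), 1 with the replicate block (1350) and 0 to 2 leaving out 1 mouse. In old HFD against young HFD and for the interaction it was 0 in each alternative. With the replicate block, *Slc25a13* was called in old ND against young ND (-0.59, adjusted p = 0.0361) and *Ass1* in old HFD against young ND (-0.68, adjusted p = 0.0396). Replicate numbers were not taken to pair the mice: over 36 pairs the correlation of deviations was -0.32 to 0.551, mean 0.182, and -0.00196 once batch was removed. The causes of these shifts were not tested.

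The number of all genes called over the alternatives was 5 to 2474 in young HFD against young ND, 14 to 1137 in old HFD against old ND, 2 to 2053 in old ND against young ND, 0 to 1235 in old HFD against young HFD, 615 to 4675 in old HFD against young ND and 0 to 587 for the interaction.

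Signs turned for members, and for the related gene *Car5a*, that were not called in the main test. In young HFD against young ND, *Slc25a13* was 0.015 or 0.025 with limma on log2(FPKM + 1) or log2(FPKM + 0.1), 0.011 in batch 2, and -0.062 to 0.027 leaving out 1 mouse. In batch 1 *Ass1* was 0.015 and *Asl* 0.039, and *Asl* was -0.22 to 0.012 leaving out 1 mouse. In old HFD against old ND, *Asl* was -0.065 in batch 2 and -0.049 without the 4 mice. In old HFD against young HFD, *Slc25a15* was 0.0053 by DESeq2 and by RLE, 0.056 in batch 1, 0.058 without the 4 mice and -0.11 to 0.043 leaving out 1 mouse. *Otc* was 0.00026 without a batch term, 0.12 in batch 1, 0.19 without the 4 mice and -0.16 to 0.079 leaving out 1 mouse. In old HFD against young ND, *Slc25a15* was -0.025 with no count filter, -0.036 in batch 2 and -0.056 to 0.12 leaving out 1 mouse, *Otc* was 0.075 in batch 1 and without the 4 mice, and *Car5a* was -0.028 in batch 2 and -0.036 to 0.41 leaving out 1 mouse. For the interaction, *Ass1* was -0.043 in batch 1 and -0.053 to 0.27 leaving out 1 mouse, and *Nags* 0.11 in batch 1, 0.0030 without the 4 mice and -0.16 to 0.0072 leaving out 1 mouse.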
